A study of Homo sapiens with 6 samples.

Results

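PMEL, its homolog GPNMB, 2 further melanosomal genes (MLANA and TYRP1), the 4 MiT/TFE transcription factors (MITF, TFEB, TFE3 and TFEC) and the folliculin genes FLCN and FNIP1 were followed through RNA sequencing libraries of human cardiomyocytes. These 10 genes were taken by symbol from the 38557 genes listed in the count files. The group was assembled around PMEL because its transcript was known to be higher in one of the media (selected on PMEL's fold change between media in these same libraries), so the values of PMEL between media are a description and carry no test. The starting cells were WTC11, a widely used human induced pluripotent stem cell line, labelled as wild type and differentiated to cardiomyocytes, and no gene was edited and no agent besides the media is named. They had been kept in RPMI plus B27, a basal medium with a serum-free supplement, or in DMEM plus fatty acids, with 3 biological replicates per medium. The labels do not give the day of differentiation or the time in each medium. All libraries come from 1 cell line, and nothing in the labels says whether the replicates are separate differentiations, so p values measure the spread between these cultures only. The libraries held 23232324 to 31035389 gene counts.

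PMEL is a membrane protein of pigment cells whose cleaved lumenal fragment assembles into the amyloid fibrils on which melanin is laid down. GPNMB is its homolog, a glycoprotein found in lysosomes and melanosomes of many cells, and MLANA (melan-A) and TYRP1 (tyrosinase-related protein 1) are further melanosomal proteins. MITF is the master regulator of melanocyte genes, whereas its relatives TFEB and TFE3 are known for driving lysosome and autophagy genes. These factors bind E-box sequences as dimers. TFEB and TFE3 are held in the cytoplasm when the kinase mTORC1 phosphorylates them at the lysosome. This step needs folliculin (FLCN) with its partner FNIP1 or FNIP2 acting on the Rag GTPases. Because control of this kind acts on proteins, the amounts of the factors' transcripts do not show their activity.

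The E-box family that MiT/TFE factors bind was looked for in the promoter windows of the members, from 250 bases before to 50 bases after the start of each gene. RefSeq promoter windows (GRCh38.p14) were matched for 9 of the 10 members, all but PMEL, with 14 windows in all, since MITF, TFEB and TFEC have several starts. The letters searched on both strands were CACGTG, which is its own reverse complement, and TCATGTG, the core of the M-box of pigment genes. Matches were found in the windows of 3 members, shown here because they are the only ones, with the matched letters in capitals and each sequence read 5′ to 3′ on the strand of its gene.
GPNMB (GRCh38.p14, chr7:23246525-23246824, plus strand): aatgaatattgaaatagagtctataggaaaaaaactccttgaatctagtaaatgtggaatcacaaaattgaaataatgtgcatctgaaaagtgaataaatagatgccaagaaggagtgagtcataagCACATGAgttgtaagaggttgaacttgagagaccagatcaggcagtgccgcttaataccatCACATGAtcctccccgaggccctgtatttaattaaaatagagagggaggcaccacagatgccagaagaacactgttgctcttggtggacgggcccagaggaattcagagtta
TYRP1 (GRCh38.p14, chr9:12693135-12693434, plus strand): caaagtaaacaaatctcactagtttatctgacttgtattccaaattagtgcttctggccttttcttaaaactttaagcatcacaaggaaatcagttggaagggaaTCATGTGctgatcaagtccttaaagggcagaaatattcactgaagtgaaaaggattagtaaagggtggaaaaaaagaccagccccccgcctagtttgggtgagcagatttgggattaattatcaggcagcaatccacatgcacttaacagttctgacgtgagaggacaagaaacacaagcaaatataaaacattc
FNIP1 (GRCh38.p14, chr5:131796968-131797267, minus strand): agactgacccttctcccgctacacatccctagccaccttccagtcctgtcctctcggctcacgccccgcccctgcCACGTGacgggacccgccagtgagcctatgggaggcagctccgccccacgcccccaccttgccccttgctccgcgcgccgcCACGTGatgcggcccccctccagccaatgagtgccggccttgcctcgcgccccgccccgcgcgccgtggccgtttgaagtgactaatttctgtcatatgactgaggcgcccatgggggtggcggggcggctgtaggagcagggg
GPNMB held 2 copies of TCATGTG, both as the reverse complement CACATGA, starting at bases 128 and 189 of its window. TYRP1 held 1 copy of TCATGTG at base 106. FNIP1 held 2 copies of CACGTG, at bases 76 and 157, and the first of them was part of GTCACGTG on the other strand, the form typical of lysosomal genes. Over all 35116 RefSeq windows of this length, CACGTG occurred in 7.26%, TCATGTG in 2.92% and GTCACGTG in 2.40%. A match shows only that the letters are present. None of the 3 genes with a match passed the test between media (TYRP1 was too low to be tested), as given below.

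PMEL, the amyloid matrix protein, lies on chr12:55954105-55973317 (hg38 coordinates from GENCODE 29, minus strand). It was measured at 4.86, 7.06 and 8.09 CPM in RPMI plus B27 (replicates 1 to 3) and at 54.4, 34.1 and 48.9 CPM in DMEM plus fatty acids, where CPM are counts relative to library size, scaled by TMM, edgeR's correction for library composition. The lowest library in DMEM plus fatty acids was thus above the highest in RPMI plus B27, and the raw counts were 129 to 217 in RPMI plus B27 and 1020 to 1650 in DMEM plus fatty acids. The fitted difference was 6.86-fold, a log2 fold change of 2.78 ± 0.26 (SE). Within libraries of the same replicate number the log2 ratio was 3.48, 2.27 and 2.60. The fitted log2 fold change stayed between 2.59 and 2.95 over 12 alternative analyses.

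GPNMB (chr7:23235967-23275108, plus strand) did not pass the test and varied widely among libraries. Its level was 4.41, 2.98 and 1.53 CPM in RPMI plus B27 and 2.88, 3.51 and 7.53 CPM in DMEM plus fatty acids. The media overlapped, and the highest value came from DMEM plus fatty acids replicate 3, with 254 counts against 41 to 117 in the other libraries. GPNMB had a log2 fold change of 0.65 ± 0.50 and an adjusted p of 0.540 (edgeR quasi-likelihood test, Benjamini-Hochberg over all 16107 tested genes). Its log2 ratio within replicate numbers ran from -0.61 through 0.24 to 2.30, and the fitted value was 0.11 without DMEM plus fatty acids replicate 3, 0.34 without RPMI plus B27 replicate 3 and 1.05 without RPMI plus B27 replicate 1.

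**Figure D1:**
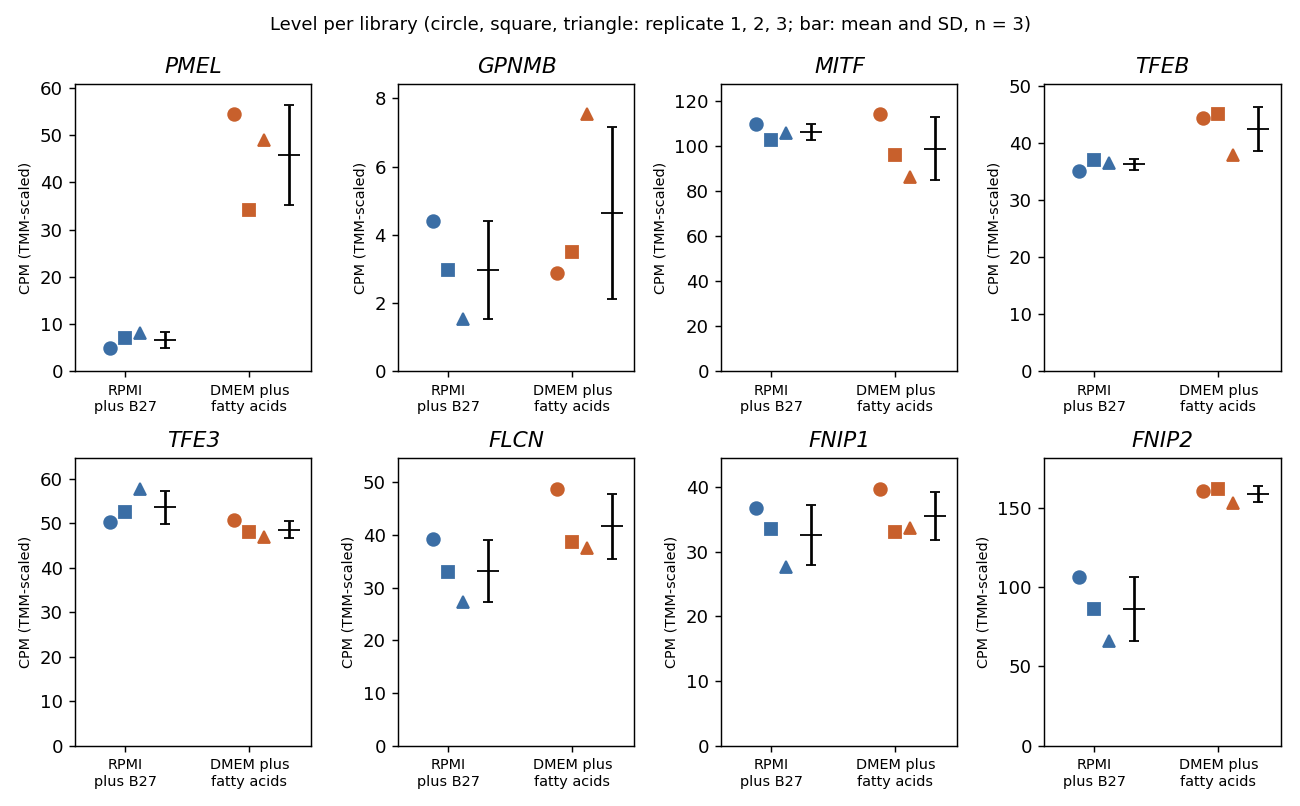
CPM (y axis, linear from 0) of the 7 tested members and of FNIP2 in each library, RPMI plus B27 in blue and DMEM plus fatty acids in orange, with the mean and SD of 3 libraries beside the points. PMEL sits at 4.86 to 8.09 CPM in RPMI plus B27 and at 34.1 to 54.4 CPM in DMEM plus fatty acids, while the points of GPNMB and MITF overlap between media.

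The other melanosomal members were near the limit of counting. MLANA had 3, 0 and 6 counts in RPMI plus B27 and 4, 4 and 6 in DMEM plus fatty acids, and TYRP1 had 2, 5 and 12 and then 1, 2 and 3. Neither had enough counts for the test, the media overlapped for both, and no fold is given. A count of 0 in the library concerned, RPMI plus B27 replicate 2, allows up to 3 counts, or 0.125 CPM before TMM scaling, for counting error only.

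None of the MiT/TFE factors passed the test between media. MITF (chr3:69739435-69968337, plus strand) was at 109.98, 102.9 and 105.8 CPM in RPMI plus B27 and at 114.2, 96.3 and 86.6 CPM in DMEM plus fatty acids, with overlapping media. Its log2 fold change was -0.10 ± 0.13 (adjusted p 0.727), and its value turned to 0.0026 under total-count scaling, which moved the median of all genes from 0.01 to 0.12. TFE3 (chrX:49028726-49043486, minus strand), a factor of lysosome genes, was at 50.4, 52.5 and 57.8 CPM against 50.8, 48.0 and 47.0 CPM. The media overlapped for TFE3 at DMEM plus fatty acids replicate 1, and its log2 fold change was -0.14 ± 0.11 (adjusted p 0.554). TFEC, a relative found mostly in myeloid cells, had 1, 1 and 3 counts against 5, 0 and 1, too few to test.

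TFEB (chr6:41683978-41736259, minus strand), the factor best known for lysosome biogenesis, was the only one of the 4 whose media did not overlap. It was at 35.1, 37.0 and 36.5 CPM in RPMI plus B27 and at 44.4, 44.9 and 37.9 CPM in DMEM plus fatty acids. The log2 fold change was 0.23 ± 0.12 and did not pass (adjusted p 0.375, and 0.178 to 0.676 over 12 alternatives). Of all tested genes, 12.8% had all DMEM plus fatty acids libraries above all RPMI plus B27 libraries, which is the background for a member with that order. TFEB also made up a larger share of the counts of the 4 factors, with 18.0%, 19.2% and 18.2% in RPMI plus B27 and 21.2%, 23.7% and 22.1% in DMEM plus fatty acids. The difference of 3.87 percentage points had an exact two-sided permutation p of 0.1, the smallest that 3 against 3 libraries allow, and 0.4 after Benjamini-Hochberg adjustment over the 4 shares. MITF held 54.2% ± 1.81 and 52.0% ± 2.20 of these counts and TFE3 27.3% ± 1.54 and 25.7% ± 1.60 (SD, n = 3 each), with overlapping media and an exact permutation p of 0.3 for each. Within replicate numbers the TFEB share was higher in DMEM plus fatty acids in 3 of 3 pairs and the MITF and TFE3 shares were lower in 3 of 3, with an exact sign-flip p of 0.25 for each, the smallest that 3 pairs allow. The 4 factors summed to 192.4 to 200.2 CPM in RPMI plus B27 and to 171.5 to 209.7 CPM in DMEM plus fatty acids. The total of the family thus overlapped between media.

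**Figure D2:**
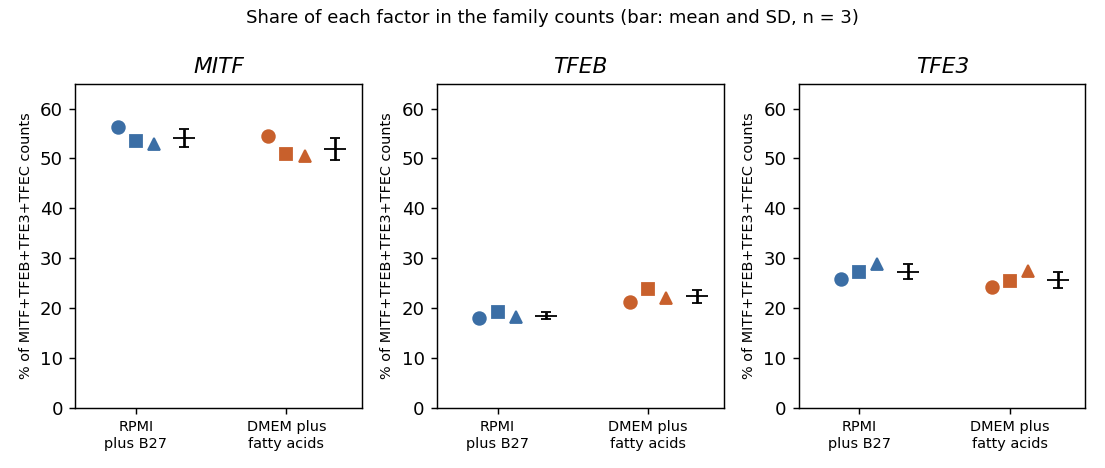
Share (y axis, percent of the raw counts of MITF, TFEB, TFE3 and TFEC in a library) of the 3 tested factors by medium, with the mean and SD of 3 libraries. TFEB lies at 18.0% to 19.2% in RPMI plus B27 and at 21.2% to 23.7% in DMEM plus fatty acids, and the other 2 factors overlap.

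Neither of the folliculin genes among the members passed the test between media. FLCN (chr17:17212212-17237188, minus strand), the GTPase-activating protein of the Rag GTPases, was at 39.2, 32.9 and 27.4 CPM in RPMI plus B27 and at 48.8, 38.7 and 37.6 CPM in DMEM plus fatty acids. It was higher in DMEM plus fatty acids within each of the 3 replicate numbers, but the media overlapped, and the log2 fold change of 0.33 ± 0.18 did not pass (adjusted p 0.382, and 0.139 when replicate number was added as a block). FNIP1 (chr5:131641714-131797063, minus strand), its partner, was at 36.7, 33.6 and 27.6 CPM against 39.7, 33.0 and 33.7 CPM, with 0.12 ± 0.15 and an adjusted p of 0.728. In GENCODE 29, 11.9% of FLCN's exon length lies under exons of other genes on the same strand, so part of its reads could have been set aside as ambiguous.

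FNIP2, the alternative partner of folliculin and not a member, was also measured. It was at 106.3, 86.5 and 65.7 CPM in RPMI plus B27 and at 160.8, 161.9 and 152.8 CPM in DMEM plus fatty acids. The media did not overlap, with 86.2 ± 20.3 against 158.5 ± 4.96 CPM (SD, n = 3 each). The log2 fold change of 0.88 ± 0.18 missed the threshold without the block (adjusted p 0.0655) and passed with it (0.0275), and its adjusted p over 12 alternatives ran from 0.00162 to 0.198.

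**Figure D3:**
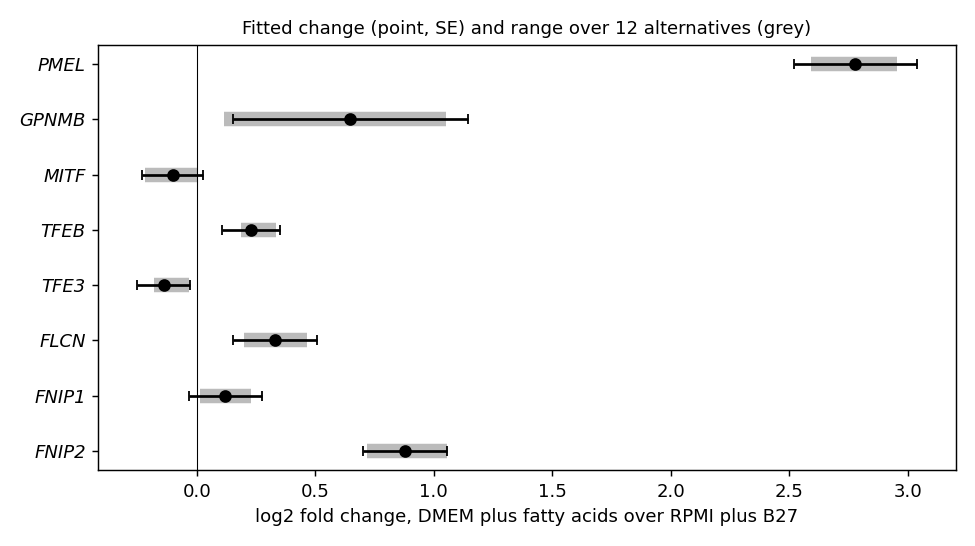
Log2 fold change (x axis, positive when higher in DMEM plus fatty acids) for the 7 tested members and FNIP2, as the fitted value with its SE (points and bars) and the range over 12 alternative analyses (grey). PMEL lies at 2.78, FNIP2 at 0.88 and the factors MITF, TFEB and TFE3 between -0.14 and 0.23.

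Of the 10 members, 7 had enough counts to be tested. Leaving PMEL aside, 0 of the other 6 passed at an adjusted p under 0.05, whether in edgeR without a replicate block, in edgeR with it or by the DESeq2 Wald test, and 0 had an unadjusted p under 0.05. Over all 16107 genes 1.36% passed (0.292% upward and 1.07% downward in DMEM plus fatty acids), or 4.78% with the block (1.36% higher and 3.42% lower), so a count of 0 among 6 is near the background. Libraries of the media did not overlap for 25.6% of all genes. An unadjusted p under 0.05 was reached by 17.7% of all genes, and DESeq2 called 2.12% of its genes upward and 4.93% downward. These shares are the background for the counts of each list given further on. The SEs of these 6 genes ran from 0.11 to 0.50 on the log2 scale, so a modest change of GPNMB in particular was not detectable with these libraries.

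Levels of different genes were compared per kilobase of exon, using all exons of each gene in GENCODE 29, which may not be the isoforms these cells use. In RPMI plus B27 the order was MITF at 14.8 ± 0.50, TFE3 at 12.5 ± 0.88, TFEB at 6.41 ± 0.17, FNIP1 at 4.11 ± 0.58, FLCN at 3.39 ± 0.60, PMEL at 1.71 ± 0.42 and GPNMB at 0.492 ± 0.24 CPM per kb (SD, n = 3). Of these neighbours only FNIP1 and FLCN overlapped between libraries. In DMEM plus fatty acids PMEL, at 11.7 ± 2.69 CPM per kb, stood between MITF at 13.8 ± 1.95 and TFE3 at 11.4 ± 0.47. The libraries of PMEL overlapped those of each factor, whereas the lowest of MITF (12.06) was above the highest of TFE3 (11.87). TFEB followed at 7.51 ± 0.69, then FNIP1 at 4.46 ± 0.46 and FLCN at 4.26 ± 0.63, which overlapped, and GPNMB at 0.768 ± 0.42. Per kilobase, the mean of PMEL thus ranked below the folliculin genes in RPMI plus B27 and between those of MITF and TFE3 in DMEM plus fatty acids, where its lowest library (8.74) was below every library of both factors.

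**Figure D4:**
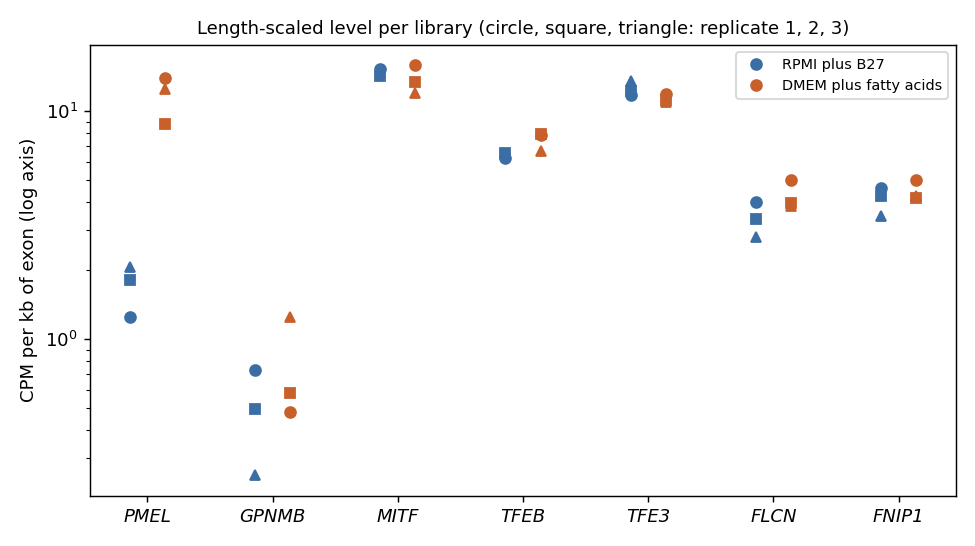
CPM per kilobase of exon (y axis, log scale) of the 7 tested members in each library, RPMI plus B27 in blue and DMEM plus fatty acids in orange. PMEL moves from a mean of 1.71 to a mean of 11.7, among the points of MITF and TFE3, and GPNMB is the lowest gene in both media.

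The neighbourhood of PMEL on chromosome 12 was examined because CDK2, a cell cycle kinase, lies entirely within the annotated span of PMEL on the opposite strand, with an overlap of 6016 bases. Exons of other genes on the opposite strand cover 2.28% of PMEL's exon length and 16.8% of CDK2's. The strand setting of the counting is not stated, so part of the reads of either gene could have been set aside as ambiguous. CDK2 was at 46.3, 42.0 and 54.4 CPM in RPMI plus B27 and at 24.2, 25.4 and 49.6 CPM in DMEM plus fatty acids. It was lower within all 3 replicate numbers, with overlapping media (log2 fold change -0.52 ± 0.29, adjusted p 0.388). DGKA (diacylglycerol kinase alpha), on the other side, was at 25.0, 15.8 and 12.9 CPM against 6.80, 8.33 and 8.09 CPM. Its libraries did not overlap and it did not pass (-1.21 ± 0.27, adjusted p 0.0828). Of the 9 genes listed as lying near PMEL, 0 passed upward and 1 downward, beside 1.07% downward over all genes (2 had an unadjusted p under 0.05, and DESeq2 called 2 downward). The gene called was MMP19 (matrix metalloproteinase 19), with 30, 30 and 14 counts against 1, 2 and 3. MMP19 had a log2 fold change of -3.74 ± 0.55 and an adjusted p of 0.0378, and with 1 library left out it passed in 1 of 6 fits (adjusted p up to 0.127). The median of the 9 genes was -0.10, beside 0.01 for all tested genes. Near GPNMB, 0 of 5 genes passed and 0 had an unadjusted p under 0.05 (DESeq2 called 0). Those with the smallest p were FAM126A (0.22 ± 0.14), KLHL7 (0.14 ± 0.15) and IGF2BP3 (0.09 ± 0.13), with adjusted p values of 0.446 to 0.768.

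The enzymes and cargo proteins that mature PMEL into fibrils were measured as a list of 17 genes, of which 0 passed (5 had an unadjusted p under 0.05, and DESeq2 called 1 upward and 1 downward). BACE2, the protease that releases the amyloid-forming fragment, was at 10.4, 13.4 and 12.9 CPM in RPMI plus B27 and 15.5, 19.7 and 18.2 CPM in DMEM plus fatty acids. The media did not overlap, and its log2 fold change of 0.54 ± 0.18 had an adjusted p of 0.176. APOE, an apolipoprotein known to take part in PMEL fibril formation, had 0.71 ± 0.18 (adjusted p 0.108), and FURIN, a proprotein convertase, -0.43 ± 0.11 (adjusted p 0.104). The list's median was 0.18.

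Pigment synthesis and melanosome channel genes counted 10, of which 6 were tested and 0 passed without the block (2 at an unadjusted p under 0.05, DESeq2 called 1 upward). TYR (tyrosinase), the rate-limiting enzyme of melanin synthesis, had 0 counts in all 6 libraries. SLC45A2, a melanosomal transporter, was at 1.96, 2.47 and 0.932 CPM in RPMI plus B27 and at 8.44, 5.92 and 4.98 CPM in DMEM plus fatty acids. The media did not overlap for SLC45A2, and its log2 fold change of 1.85 ± 0.40 had an adjusted p of 0.0808, which became 0.0283 with the replicate number as a block (0.000272 to 0.203 over 12 alternatives). TPCN2, an endolysosomal cation channel, had 0.77 ± 0.27 (adjusted p 0.201), and GPR143, the melanosomal receptor of ocular albinism, 0.89 ± 0.48 (adjusted p 0.387). For the 26 genes of organelle sorting and melanosome transport (adaptor, BLOC and Rab genes), 24 were tested, 0 passed and 1 had an unadjusted p under 0.05, while DESeq2 called 1 downward. Their median was 0.05, and those with the smallest p were the BLOC subunits DTNBP1 (0.37 ± 0.13), HPS6 (-0.28 ± 0.14) and BLOC1S2 (0.40 ± 0.20), with adjusted p values of 0.198 to 0.359.

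Among 7 genes listed as receptors or partners of GPNMB, 6 were tested and 1 passed, downward, beside 1.07% over all genes (2 had an unadjusted p under 0.05, and DESeq2 called 2 downward). The link to GPNMB of the gene that passed, and of HAVCR2 in the same list, is not certain. The gene that passed was VSIR, an immune checkpoint receptor, at 14.8, 16.1 and 20.8 CPM in RPMI plus B27 and 4.13, 1.97 and 2.52 CPM in DMEM plus fatty acids (log2 fold change -2.59 ± 0.31, adjusted p 0.0292). It was lower in all 3 replicate numbers and passed in 2 of 6 fits with 1 library left out (adjusted p up to 0.0958). EGFR, the epidermal growth factor receptor, had -1.01 ± 0.30 (adjusted p 0.157), and ITGB1 (integrin beta 1) -0.28 ± 0.13 (adjusted p 0.327). The list's median was -0.59.

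The Rag GTPase and mTORC1 control genes, through which folliculin acts, counted 33, all tested, and 0 passed (8 had an unadjusted p under 0.05, beside 17.7% of all genes, and DESeq2 called 6, all upward, beside 2.12%). Their median log2 fold change was 0.16, with 26 of 33 above 0, beside 0.01 and 51.0% for all tested genes. Those with the smallest p were DEPDC5, a subunit of the GATOR1 complex (0.50 ± 0.12, adjusted p 0.0978), SESN2 (sestrin 2, a leucine sensor, 0.80 ± 0.20, adjusted p 0.108) and LAMTOR3, a subunit of the Ragulator scaffold (0.57 ± 0.14, adjusted p 0.109). The media did not overlap for any of these 3. Of 16 kinases, phosphatases and related regulators of the factors, 0 passed and 1 had an unadjusted p under 0.05 (DESeq2 called 0). Their median was 0.03, and those with the smallest p were PRKAA1 (an AMP-activated kinase subunit, 0.31 ± 0.12), the lysosomal calcium channel MCOLN1 (0.42 ± 0.23) and PRKAA2 (-0.45 ± 0.30), with adjusted p values of 0.235 to 0.482.

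Targets of TFEB and TFE3 were measured as 60 lysosomal genes of the CLEAR network, named for their shared E-box element, and 19 autophagy genes. Of the lysosomal genes 56 were tested and 0 passed, with or without the block (13 had an unadjusted p under 0.05, beside 17.7% of all genes, and DESeq2 called 2 upward and 2 downward). Their median log2 fold change was 0.22, with 41 of 56 above 0. In 13 of the 56 all DMEM plus fatty acids libraries lay above all RPMI plus B27 libraries, and in 2 all lay below, against 12.8% of all tested genes for each order. NAGLU, an enzyme of heparan sulphate breakdown, went from 28.5 ± 4.81 to 54.7 ± 10.8 CPM (SD, n = 3 each; log2 fold change 0.94 ± 0.20, adjusted p 0.0751). IDS, an enzyme of the same pathway, had -0.72 ± 0.15 (adjusted p 0.0780), and CLCN7, the lysosomal chloride transporter, 0.55 ± 0.12 (adjusted p 0.0808). Of the 19 autophagy genes 0 passed and 3 had an unadjusted p under 0.05 (DESeq2 called 1 upward). Their median was 0.06, and VPS11 (a tethering complex subunit, 0.52 ± 0.11), MAP1LC3B (the autophagosome protein LC3B, 0.54 ± 0.18) and ATG9B (-1.79 ± 0.63) had the smallest p, with adjusted p values of 0.0733 to 0.205.

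**Figure D5:**
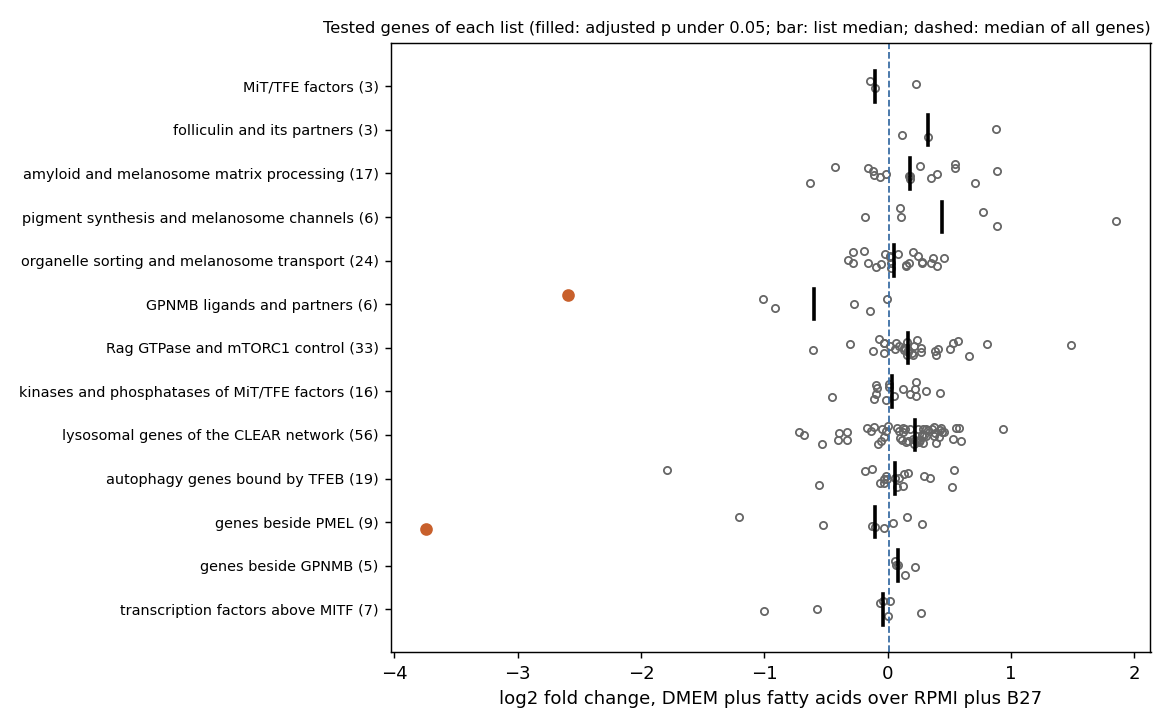
Log2 fold change (x axis, positive when higher in DMEM plus fatty acids) for each tested gene of the pathway lists (number tested in brackets), with genes past an adjusted p of 0.05 filled, the list median as a black bar and the median of all tested genes dashed. The 2 filled genes are VSIR at -2.59 and MMP19 at -3.74, and the lysosomal list has a median of 0.22.

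Factors that act on the MITF gene in pigment cells were mostly low or level. SOX10, the main activator of MITF in the neural crest lineage, had 0 counts in each RPMI plus B27 library and 1, 2 and 1 counts in DMEM plus fatty acids, and FOXD3 had 0 counts in all 6. Of the 12 factors listed, 7 were tested and 0 passed without the block (1 at an unadjusted p under 0.05, DESeq2 called 1 downward). SOX9 went from 14.4 ± 4.68 to 7.21 ± 1.25 CPM (SD, n = 3 each, adjusted p 0.126 in edgeR without and 0.0363 with the block).

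The label of the cells was checked against 12 cardiomyocyte markers, all of which were tested, and which summed to 32613 to 38687 CPM in RPMI plus B27 and 25591 to 36301 CPM in DMEM plus fatty acids. None of the 12 passed in edgeR without the block (3 had an unadjusted p under 0.05, and DESeq2 called 1 upward and 2 downward), and 2 fell with it. These were the slow myosin heavy chain MYH7, from 9638 ± 3231 to 4000 ± 1862 CPM (block adjusted p 0.0359), and the Z-disc protein ACTN2, from 2218 ± 474 to 1109 ± 380 CPM (block adjusted p 0.0494; SD, n = 3 each). MYH6, the alpha myosin heavy chain, went from 4758 ± 1119 to 8653 ± 1931 CPM and did not pass in either edgeR fit (adjusted p 0.166, and 0.0797 with the block). Melanocyte markers without PMEL (15 genes) summed to 12.9 to 19.2 CPM and 17.4 to 22.6 CPM, with TYR and ABCB5 at 0 and SOX10, SLC24A5 and TRPM1 at 3 counts or fewer in every library. Of the 6 melanocyte markers tested, 4 were above 0, and 0 passed without the block (2 at an unadjusted p under 0.05, DESeq2 called 1 upward and 1 downward). With the block 1 passed, SLC45A2, which was higher in DMEM plus fatty acids. KIT, the other with an unadjusted p under 0.05, was lower there, with media that did not overlap. It went from 2.63 ± 0.855 to 1.06 ± 0.400 CPM (SD, n = 3 each; log2 fold change -1.31 ± 0.42, adjusted p 0.173). Markers of the retinal pigment epithelium, the other pigmented cell type, included PMEL and MITF themselves and summed to 166.2 to 216.8 CPM and 212.7 to 218.5 CPM. RPE65, the visual cycle isomerase that defines it, had 15, 5 and 9 counts against 1, 1 and 0, and RLBP1 had at most 1. BEST1 went the other way, with 17, 11 and 6 counts against 64, 20 and 32. Its media did not overlap (log2 fold change 1.69 ± 0.65, adjusted p 0.238). LRAT (0.28 ± 0.60) and RDH5 (0.45 ± 0.56) overlapped. Of the 8 tested, 5 were above 0, PMEL among them. PMEL was selected on its fold change, so its part in these counts carries no test. None of the other tested markers passed. The 2 with an unadjusted p under 0.05 were PMEL and BEST1. DESeq2 called 1 upward, which was PMEL, and 1 downward. Macrophage markers, relevant to GPNMB, summed to 2.04 to 3.09 CPM and 1.54 to 2.24 CPM over 15 genes, with C1QA, C1QB, C1QC and TREM2 at 0. Neural crest and Schwann cell markers summed to 34.9 to 124.1 CPM in RPMI plus B27 and 14.6 to 32.6 CPM in DMEM plus fatty acids, and of the 3 tested 0 passed without the block (2 had an unadjusted p under 0.05, and DESeq2 called 2 downward) and 2 fell with it, NGFR (block adjusted p 0.00823) and ERBB3 (0.0413). Fibroblast and stromal markers (15 genes) summed to 7347 to 15337 CPM in RPMI plus B27 and 1191 to 2885 CPM in DMEM plus fatty acids, and 6 of the 14 tested fell (DCN, COL1A1, COL3A1, POSTN, FBN1 and LOX), beside 1.07% of all genes. With the block 10 of the 14 fell, DESeq2 called 11 downward, and for 12 all DMEM plus fatty acids libraries were below all RPMI plus B27 libraries. With 1 library left out, COL1A1 passed in 2 of 6 fits, DCN, POSTN, FBN1 and LOX in 1 each and COL3A1 in 0. The part of this difference in the values of PMEL was not tested. In these bulk libraries fewer cells of a type and less RNA per cell cannot be told apart.

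Genes whose pattern was most like that of PMEL were taken by Pearson's r of log2 CPM over the 6 libraries among 14084 genes averaging 1 CPM or more, as a description. Among the highest were ZNF33B and ZNF669 (zinc finger proteins, 0.998 each), PIK3R4 (the regulatory subunit VPS15 of class III PI3 kinase, 0.995) and ST8SIA5 (a sialyltransferase, 0.995). The most opposite were TPM4 (tropomyosin 4, -0.999), CALHM5 (-0.996) and ITGA11 (integrin alpha 11, -0.995). All 7 put the 6 libraries in the same order as PMEL or in the exact reverse; in all, 118 genes had a Spearman correlation of 1 and 146 of -1. Of the members, TFEB had 0.78, FLCN 0.60, GPNMB 0.37, FNIP1 0.33, MITF -0.39 and TFE3 -0.60.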

How the data were processed

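The 6 libraries analysed were 3 of RPMI plus B27 and 3 of DMEM plus fatty acids. The deposited files hold whole-number read counts by gene symbol, which the authors made with STAR and HTSeq on hg38, per the submitters' processing notes. The annotation and strand setting are not given in the sources used here. The library kit marks strand and selects mRNA, per the labels' protocols. Rows naming no gene were left out of library sizes (gene rows held 84.4% to 87.2%; reads aligned to several places, 3.05% to 4.10%, were set aside, so genes with close copies can be undercounted). Counts were filtered with filterByExpr (minimum count 10, total 15), scaled by TMM and tested with edgeR 4.0.16 in R 4.3.3 (quasi-likelihood, media only, Benjamini-Hochberg, threshold 0.05). The procedure was tried on simulated libraries, which held no effect of replicate number and so do not cover that feature of the data. SEs are those implied by the F statistic. Shares were compared by exact permutation tests (scipy 1.17.1). Deviations of same-numbered libraries from their medium's mean correlated at 0.31, 0.43 and 0.37, those of other numbers at -0.24 to -0.14. These values are linked, since deviations from a mean cancel out. The main fit did not pair the libraries, so its adjusted p values take no account of the numbers. Pairing by number entered only the replicate block, the ratios within replicate numbers and the sign-flip tests. The 12 alternatives were 2 scalings, 2 filters, DESeq2 1.42.0, the replicate block and each library left out. Coordinates and exon lengths come from GENCODE 29. Symbols in 3 cases were matched under older or newer names. Named genes are the members, up to 3 per list with the smallest p and any called, the genes most like PMEL, and markers; some genes under this rule are not reported here. The choice of DCN and the other fibroblast markers as named genes was made with their values known. The members and lists were chosen with earlier results of these data known.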

Additional observations from a re-analysis of the deposited data

How the results depend on the processing

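The number of genes called between media was 219, and 217 and 202 with RLE or total-count scaling. It moved to 539 with no filter on low counts, 119 with at least 10 counts in every library, 1237 by the DESeq2 Wald test and 770 with the replicate block, and lay between 3 and 131 when 1 library was left out. Scaling by total counts raised the share of higher calls (74 higher and 128 lower, against 47 and 172). The log2 fold change of PMEL stayed between 2.59 and 2.95. Over 72 alternative values of the 6 other tested members, 71 kept direction and stayed short of the threshold, and 1, MITF under total-count scaling, turned to 0.0026. The cause was not tested. With the block none of these 6 was called. Of the other named genes, 12 passed with the block and not without it, FNIP2, SLC45A2, SOX9, ZNF33B and 8 cardiomyocyte, neural crest and fibroblast markers. The TFEB share differed by 3.17 to 4.46 percentage points when 1 library was left out and had an exact sign-flip p of 0.25 within replicate pairs, the smallest 3 pairs allow. The TFEC share, which rests on 11 counts in all, differed by 0.0076 points, lay between -0.0238 and 0.0276 with 1 library left out, and turned to -0.0238 without DMEM plus fatty acids replicate 1. Depth limits MLANA, TYRP1 and TFEC, which no fold can be given for.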
